A study of Mus musculus with 16 samples.

Results

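Taar7a, Taar7b, Taar7d, Taar7e, Taar7f, Taar8a, Taar8b and Taar8c are the protein-coding genes of the Taar7 and Taar8 subfamilies of trace amine-associated receptors in the mouse. They were taken by gene symbol, by a rule that uses no measured value, and all 8 were found among the 19505 genes with a symbol, each through 1 probe set (a set of array probes for 1 transcript). The series measured RNA on 16 Affymetrix arrays, from cells sorted out of the olfactory mucosa of S100a5-tauGFP mice on a C57BL/6 background, both sexes, 7 to 12 weeks old. All 24 mice stayed alone in clean-air chambers for 40 h, and from 26 h on received a 10 s pulse every 20 min, either of filtered air (vehicle) or of a mixture of isoamyl acetate, a fruity ester, and whiskey lactone, a lactone (odor). Mice were pooled by 3, which gave 4 odor pools and 4 vehicle pools, and each pool was sorted by green fluorescence into a library titled GFP+ and a library titled GFP-. The groups used here are therefore odor titled GFP+, odor titled GFP-, vehicle titled GFP+ and vehicle titled GFP-, with 4 libraries each. S100a5 is a calcium-binding protein whose transcript rises with activity in olfactory sensory neurons, so the reporter allele, carried by all mice of all groups, marks neurons by their recent activity.

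Trace amine-associated receptors are G-protein-coupled receptors that, apart from Taar1, are expressed in olfactory sensory neurons, where a neuron as a rule carries a single type of receptor, and they couple through the same olfactory G protein, adenylyl cyclase and cyclic nucleotide-gated channel as odorant receptors. Several are known for volatile amines: Taar4 for 2-phenylethylamine, Taar5 for trimethylamine, Taar3 for isoamylamine and Taar7f for N-methylpiperidine. The Taar7 and Taar8 genes are tandem copies within a single cluster. Neither odorant of the mixture is an amine.

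The labels and the libraries limit the direction of each result. Where a sample's title says GFP+ its cell type tag says GFP-, and the reverse, in all 16 samples. Groups here follow the titles, and should the tags be the correct ones, the sign of every fraction difference would turn. S100a5 itself was at 15.05 to 15.55 on the deposited log2 scale in odor libraries with the title GFP+, below the 16.04 to 16.66 of those titled GFP-, which goes against the titles. In vehicle pool 3 both libraries lay with the opposite fraction of the other pools: S100a5 was 16.37 in its library titled GFP+ and 14.99 in its library titled GFP-, against 14.59 to 15.47 and 16.27 to 16.44 in the other vehicle pools. Values are therefore given over the 16 arrays and again over the 14 arrays without vehicle pool 3. The mature neuron marker Omp was 18.44 to 18.68 in all 16 libraries. Library medians over genes ran from 6.63 to 7.09. The number of arrays limits the precision, and levels of different probe sets are not set against each other here.

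In the RefSeq order along chromosome 10 the genes follow Taar6 as Taar7a, Taar7b, the pseudogene Taar7c-ps, Taar7d, Taar7e, Taar7f, Taar8a, Taar8b and Taar8c, ahead of Taar9. The 5 Taar7 gene models have the same coding length, 1077 bases, and those of Taar8a and Taar8b have 1035. RefSeq promoter windows on GRCm38.p6, 250 bases before to 50 bases after the start of the gene model, matched 6 of the 8 genes (Taar8a and Taar8c had none in the table). In each of the 6 windows the model starts at an ATG, so the window lies around the start of the coding sequence. The 3 windows below are shown because they are the most alike among the 6 while the odor differences of their genes had different signs. Taar7e, on the lower side, overlapped between the odor fractions and did not pass the test described below. The 3 windows are on the plus strand, at chr10:24026972-24027271 for Taar7d, chr10:24037364-24037663 for Taar7e and chr10:24049260-24049559 for Taar7f. Capitals mark bases that are not paired with an identical base of Taar7d in a global alignment, so Taar7d is in lower case throughout.
Taar7d: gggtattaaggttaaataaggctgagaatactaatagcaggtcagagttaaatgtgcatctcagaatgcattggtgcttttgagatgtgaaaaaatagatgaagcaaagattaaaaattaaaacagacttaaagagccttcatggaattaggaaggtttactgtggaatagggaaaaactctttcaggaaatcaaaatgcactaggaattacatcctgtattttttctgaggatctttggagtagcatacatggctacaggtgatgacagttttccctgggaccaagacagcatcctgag
Taar7e: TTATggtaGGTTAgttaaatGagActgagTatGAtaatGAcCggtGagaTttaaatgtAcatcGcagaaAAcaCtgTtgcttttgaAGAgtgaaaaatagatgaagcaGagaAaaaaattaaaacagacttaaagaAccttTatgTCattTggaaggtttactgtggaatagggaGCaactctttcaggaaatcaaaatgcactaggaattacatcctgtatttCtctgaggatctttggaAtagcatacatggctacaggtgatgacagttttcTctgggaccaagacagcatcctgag
Taar7f: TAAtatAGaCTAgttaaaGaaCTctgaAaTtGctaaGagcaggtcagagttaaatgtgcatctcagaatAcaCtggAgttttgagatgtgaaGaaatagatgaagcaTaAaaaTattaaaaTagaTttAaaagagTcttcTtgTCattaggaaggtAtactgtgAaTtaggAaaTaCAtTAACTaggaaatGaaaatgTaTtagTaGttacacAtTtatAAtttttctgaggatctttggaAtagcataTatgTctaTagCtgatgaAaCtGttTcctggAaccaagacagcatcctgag
The Taar7e window was 85.8% identical to that of Taar7d over the alignment, with 40 capitals, and the Taar7f window 78.7%, with 60 capitals. Windows of Taar7b, Taar7a and Taar8b were 61.9%, 50.8% and 46.9% identical to that of Taar7d. The paired half-sites of the Ebf (O/E) factors of olfactory neurons, CCCNNGGG on either strand, were in 4491 of 32851 windows of the table (13.7%) and in none of these 6. The homeodomain core TAATTA, on either strand, was in 1738 windows (5.29%), among them that of Taar8b. Whether the other windows also lie around a coding start was not tested, so these shares may compare unlike regions.

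In the odor pools 6 of the 8 receptor genes had levels that did not overlap between the fractions. Taar7a, Taar7d, Taar7f and Taar8b were above in all 4 libraries titled GFP+, and Taar7b and Taar8a below. For comparison, 16.5% of the 19505 genes (3219) did not overlap between these fractions. The genes above in the libraries titled GFP+ thus lay on the side where S100a5 was lower, and the genes below lay on the side where it was higher. In a bulk library fewer cells of a type and less RNA per cell cannot be told apart.

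**Figure D1:**
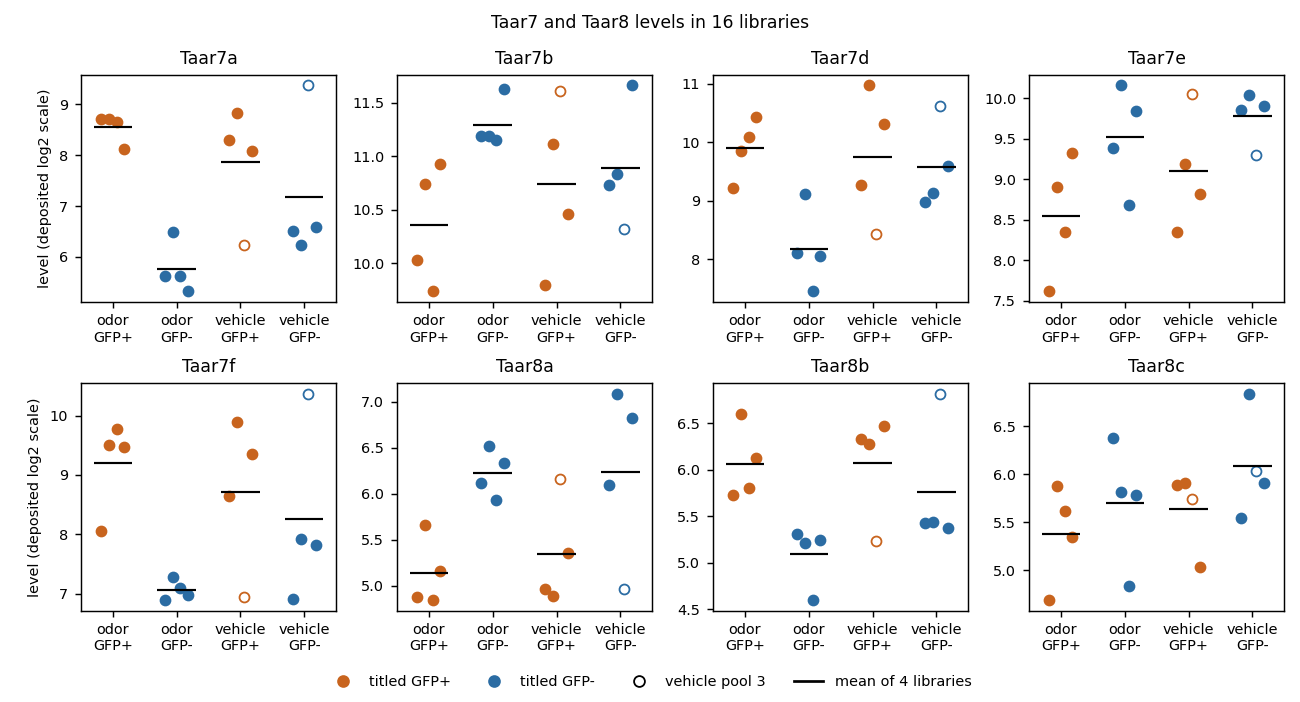
Level of each Taar7 and Taar8 gene (deposited log2 scale, a separate axis for each gene) in the 16 libraries, by treatment and titled fraction. Filled points are libraries, open points the libraries of vehicle pool 3 and black lines the means of 4 libraries. In the odor groups Taar7a separates at 8.11 to 8.71 against 5.32 to 6.48, and in the vehicle groups the open points lie with the opposite fraction for most genes.

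Taar7a had the largest fitted difference of the 8, though its levels were below the 95th percentile of the array's negative controls (9.56) in all 16 libraries. In odor pools 1 to 4 its log2 level was 8.70, 8.71, 8.66 and 8.11 for the titled GFP+ fraction, against 5.63, 6.48, 5.63 and 5.32 for the titled GFP- fraction. The lowest library titled GFP+ thus stood well above the highest titled GFP-. The difference was 2.78 ± 0.62 log2 units (SE, limma, 4 groups of 4; adjusted p = 0.0286), and without vehicle pool 3 the same difference had an SE of 0.24 (adjusted p = 7.2e-07).
Taar7f, a receptor known for N-methylpiperidine, was at 8.05, 9.51, 9.78 and 9.47 in the odor libraries titled GFP+ and at 6.89, 7.28, 7.10 and 6.98 in those titled GFP-. The fractions did not overlap, and pool 1 was the low one on the GFP+ side. The difference was 2.14 ± 0.67 log2 units (limma, adjusted p = 0.0665), with an SE of 0.35 and an adjusted p of 0.000441 without vehicle pool 3.
Taar7d was at 9.22, 9.86, 10.10 and 10.43 in the odor libraries titled GFP+ and at 8.11, 9.12, 7.45 and 8.06 in those titled GFP-. The highest library titled GFP- came close to the lowest titled GFP+, with no overlap. The difference was 1.72 ± 0.51 log2 units (limma, adjusted p = 0.0553; SE 0.38 and adjusted p = 0.00526 without vehicle pool 3).
Taar8b, of the other subfamily, was at 5.73, 6.60, 5.81 and 6.12 against 5.31, 5.21, 4.60 and 5.25. All 4 libraries titled GFP+ were above. The difference was 0.97 ± 0.34 log2 units (limma, adjusted p = 0.0984; SE 0.20 and adjusted p = 0.00285 without vehicle pool 3).

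Taar8a ran the other way. In odor pools 1 to 4 its log2 level was 4.87, 5.66, 4.84 and 5.16 for the titled GFP+ fraction, against 6.12, 6.52, 5.93 and 6.33 for the titled GFP- fraction. No library titled GFP+ reached the lowest titled GFP-. The difference was -1.09 ± 0.39 log2 units (limma, adjusted p = 0.107; SE 0.23 and adjusted p = 0.00428 without vehicle pool 3).
Taar7b was at 10.04, 10.75, 9.74 and 10.93 in the odor libraries titled GFP+ and at 11.19, 11.19, 11.15 and 11.63 in those titled GFP-. The groups did not overlap, but the difference of -0.93 ± 0.37 log2 units did not pass the test (limma, adjusted p = 0.152; 0.0636 without vehicle pool 3).
Taar7e was at 7.61, 8.91, 8.35 and 9.33 against 9.39, 10.17, 8.68 and 9.84. Here the fractions overlapped, since the highest library titled GFP+ exceeded the lowest titled GFP-. The difference of -0.97 ± 0.41 log2 units did not pass (limma, adjusted p = 0.175; 0.0886 without vehicle pool 3).
Taar8c was at 4.69, 5.88, 5.62 and 5.35 against 6.38, 5.81, 4.83 and 5.78. Its fractions overlapped, with a difference of -0.32 ± 0.35 log2 units (limma, adjusted p = 0.659; 0.657 without vehicle pool 3).

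Over all 16 arrays the test (limma, two-sided, Benjamini-Hochberg over 19505 genes, threshold 0.05) thus called Taar7a alone, as higher, where 4.57% of all genes were called higher and 2.39% lower; 7 of the 8 had an unadjusted p under 0.05, as did 21.7% of all genes. With the pool of mice as a block on these 16 arrays none was called, and 0.0103% of all genes. The count was 0 as well when any single odor library was left out, in fits that called 0.0103% to 0.0154% of all genes, except the library of odor pool 4 titled GFP+, without which it stayed at 1. It was 2 without the library of vehicle pool 2 titled GFP+, and 4 and 5 without the library of vehicle pool 3 titled GFP+ and titled GFP-, with 5.64%, 11.2% and 9.48% of all genes called. Without both libraries of vehicle pool 3, 5 of the 8 were called: Taar7a, Taar7d, Taar7f and Taar8b as higher and Taar8a as lower, where 8.59% of all genes were called higher and 4.59% lower. These 5 were called in each of the 14 fits that left out a further library. The pool block on the 14 arrays added Taar7b and Taar7e as lower, 7 in all, with 13.6% of all genes called. The median difference was 0.33 log2 units over the 8 genes, which lay on both sides of 0, and -0.08 over all genes. Centring each array on its median moved the median over the 8 genes to -0.02 and that over all genes to -0.43, and moved the calls over all genes on 14 arrays from 1675 higher and 895 lower to 1344 higher and 8734 lower; the sign of no Taar7 or Taar8 gene changed in this comparison under centring or quantile normalization.

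In filtered air the same genes were on the same sides once vehicle pool 3 was left out. For Taar7a, log2 levels in vehicle pools 1 to 4 were 8.30, 8.84, 6.24 and 8.08 for the titled GFP+ fraction, against 6.50, 6.23, 9.38 and 6.58 for the titled GFP- fraction. In pool 3 alone the library titled GFP- was the higher one. The difference was 0.69 ± 0.62 log2 units over 4 pools (limma, adjusted p = 0.752) and 1.97 ± 0.28 over the other 3 (adjusted p = 0.000122).
Taar8a was at 4.96, 4.89, 6.16 and 5.35 against 6.09, 7.09, 4.96 and 6.82. Outside pool 3 it was called lower in the libraries titled GFP+, with a difference of -1.60 ± 0.27 log2 units (limma, adjusted p = 0.000654), and over 4 pools the difference was -0.90 ± 0.39 (adjusted p = 0.489).
Taar7f was at 8.65, 9.90, 6.94 and 9.34 against 6.91, 7.92, 10.37 and 7.82. Its difference was 0.45 ± 0.67 log2 units over 4 pools (limma, adjusted p = 0.862) and 1.75 ± 0.40 without pool 3 (adjusted p = 0.00838).
Taar8b was at 6.33, 6.28, 5.23 and 6.47 against 5.43, 5.44, 6.82 and 5.37. The 3 remaining pools each differed by 0.84 log2 units or more, and the test without pool 3 gave 0.94 ± 0.23 (limma, adjusted p = 0.0115), against 0.31 ± 0.34 over 4 pools (adjusted p = 0.80).

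The other 4 genes did not pass the test in filtered air. Taar7d was at 9.27, 10.98, 8.44 and 10.31 for the titled GFP+ fraction, against 8.98, 9.14, 10.63 and 9.59. Its fractions overlapped with and without pool 3, and the difference without it was 0.95 ± 0.44 log2 units (limma, adjusted p = 0.215). Taar7e was at 8.35, 9.19, 10.06 and 8.81 against 9.86, 10.04, 9.30 and 9.91. Its 3 pools other than pool 3 did not overlap between fractions, with a difference of -1.15 ± 0.40 log2 units (limma, adjusted p = 0.0885). Taar7b was at 9.80, 11.11, 11.61 and 10.46 against 10.73, 10.83, 10.33 and 11.67. Its fractions overlapped, with a difference of -0.62 ± 0.36 log2 units without pool 3 (limma, adjusted p = 0.341). Taar8c was at 5.89, 5.91, 5.74 and 5.03 against 5.54, 6.84, 6.04 and 5.91. It overlapped as in the odor pools, with a difference of -0.49 ± 0.41 log2 units without pool 3 (limma, adjusted p = 0.541).

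Over all 16 arrays none of the 8 was called between the vehicle fractions by limma, with or without the pool block, 1 had an unadjusted p under 0.05 (9.8% of all genes), and 0.0% of all genes were called. Without vehicle pool 3, 4 were called, Taar7a, Taar7f and Taar8b as higher and Taar8a as lower, where 7.86% of all genes were called higher and 3.32% lower; with the pool block Taar7e was called as well, as lower. Taar7a, Taar8a and Taar8b were called in each of the 14 fits that left out a further library, and Taar7f in 13, with an adjusted p of 0.0523 (limma) without the library of vehicle pool 1 titled GFP-. The levels of 5 genes did not overlap between the 3 remaining pools' fractions (Taar7a, Taar7f and Taar8b above, Taar7e and Taar8a below), where 27.6% of all genes (5374) did not overlap. With all 4 vehicle pools, every one of the 8 overlapped.

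**Figure D2:**
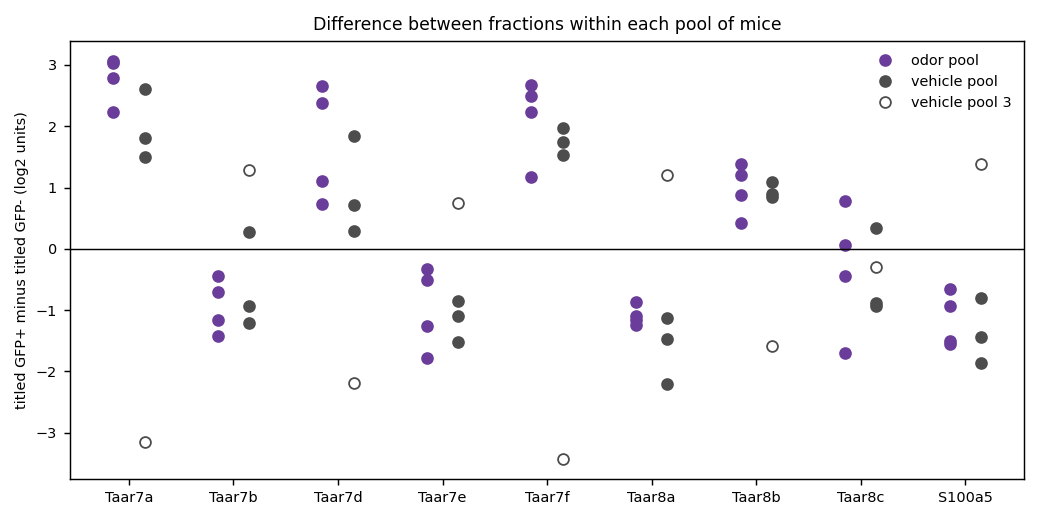
Level in the library titled GFP+ minus that in the library titled GFP- of the same pool of mice (log2 units), for the 8 genes and S100a5. Each point is 1 pool, and the open point is vehicle pool 3. All 7 other pools are above 0 for Taar7a, Taar7d, Taar7f and Taar8b and below 0 for Taar7e, Taar8a and S100a5, and vehicle pool 3 is on the other side for these.

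Within pools the directions were the same for most of the family. Leaving aside vehicle pool 3, Taar7a, Taar7d, Taar7f and Taar8b were higher in the library titled GFP+ in all 7 pools, and Taar7e and Taar8a lower in all 7. Taar7b was lower in 6 of 7, vehicle pool 2 being the exception with a difference of 0.28 log2 units. Taar8c was lower in 4 and higher in 3. In vehicle pool 3 the difference had the opposite sign for 7 of the 8, from -3.42 log2 units for Taar7f and -3.14 for Taar7a to 1.29 for Taar7b, and S100a5 differed by 1.38 there. Taar8c was the gene that did not turn, with -0.30.

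The markers of other cell types moved with the same fractions. Without vehicle pool 3, all 8 of 8 myeloid and neutrophil markers were called higher in the libraries titled GFP+ under odor, with a median difference of 8.34 log2 units; their mean level was 11.85 to 14.60 there and 4.91 to 6.83 in the libraries titled GFP-. In the 3 vehicle pools it was 14.31 to 14.91 and 6.10 to 7.70. All 5 microvillar markers, 6 of 7 sustentacular, 4 of 4 measured globose basal, 3 of 3 measured lymphoid and 3 of 6 immature neuron markers were also called higher under odor. No horizontal basal cell or ensheathing glia marker was called under odor, of 3 measured each; 1 glia marker was called higher between the vehicle fractions. Of the 8 mature neuron markers none was called higher and 2 lower, and their mean level was 16.57 to 16.70 in the odor libraries titled GFP+ and 16.86 to 16.99 in those titled GFP-. The part of this makeup in the differences of the Taar7 and Taar8 genes was not tested.

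In the stretch from Taar7a to Taar8c neighbouring genes had fraction differences of opposite sign. Elsewhere in the cluster some neighbours shared a sign and others did not. Taar3, Taar4 and Taar5 were all below 0, Taar6 was above 0 like Taar7a, and Taar9 below 0 like Taar8c. The sign changed between Taar1 (below 0) and Taar2 (above 0), between Taar2 and Taar3, and between Taar5 and Taar6. Opposite signs of neighbours were thus not particular to the Taar7 and Taar8 genes. Without vehicle pool 3 the signs of the odor difference from Taar7a to Taar8c, with the pseudogene left aside, were higher, lower, higher, lower, higher, lower, higher, lower. Of these, Taar7b, Taar7e and Taar8c did not pass the test. Of the 5 Taar7 genes 3 were called, all as higher, and of the 3 Taar8 genes 1 was called in each direction. The same fit called 8.59% of all genes higher and 4.59% lower. Of the 7 other receptors of the cluster, Taar2 (5.29 ± 0.48 log2 units, adjusted p = 1.28e-06) and Taar6 (2.04 ± 0.45, adjusted p = 0.00522) were called higher in the odor libraries titled GFP+ by limma without vehicle pool 3. Taar3 (95% interval -2.82 to -1.19), Taar4 (-2.13 ± 0.32), Taar5 (-1.05 ± 0.22) and Taar9 (-2.44 ± 0.39) were called lower. Taar1, which is no olfactory receptor, was at -0.39 ± 0.22 and not called. In all 16 libraries Taar5 (3.95 to 6.24) and Taar1 (3.39 to 4.69) were below the 95th percentile of the negative controls (9.56). Over all 16 arrays Taar2 was called higher and Taar3 and Taar9 lower, and of the Taar7 and Taar8 genes only Taar7a was called. That fit called 4.57% of all genes higher and 2.39% lower.

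**Figure D3:**
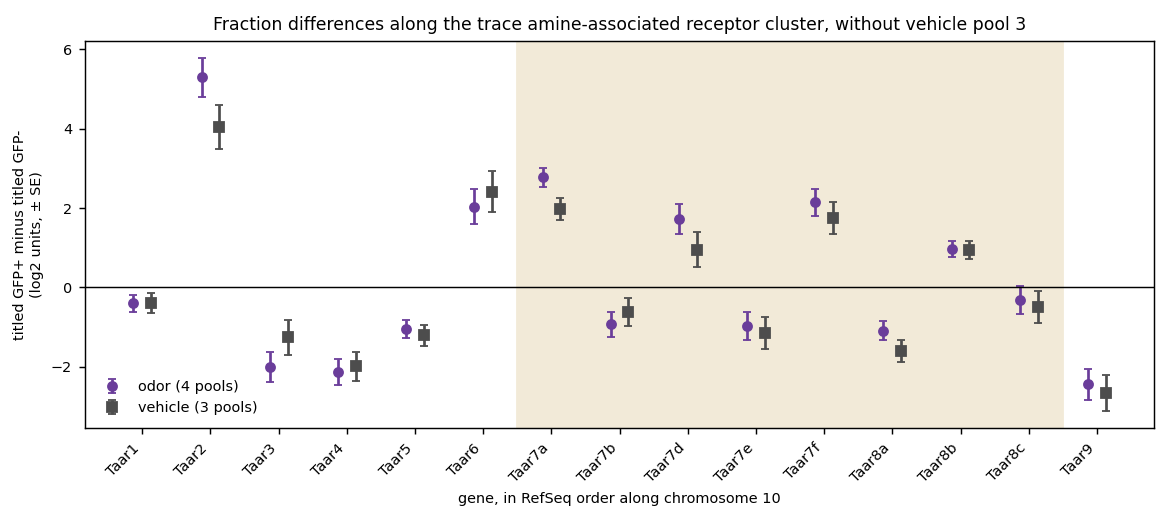
Difference between the library titled GFP+ and that titled GFP- (log2 units, limma estimate ± SE, without vehicle pool 3) for 15 trace amine-associated receptor genes in their RefSeq order on chromosome 10, with equal spacing. Circles are odor (4 pools), squares vehicle (3 pools), and the shaded genes are Taar7 and Taar8. Taar2 is the highest at 5.29 under odor, and signs alternate from Taar7a to Taar8c.

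Most genes of the transduction and trafficking machinery that these receptors share with odorant receptors did not pass the test between the fractions. Of 16 on that list, 3 were called lower in the odor libraries titled GFP+ without vehicle pool 3 and none higher: Ano2, a calcium-activated chloride channel (-0.51 ± 0.12 log2 units, limma, adjusted p = 0.00869), Pde1c, a phosphodiesterase (-0.69 ± 0.14, adjusted p = 0.0032), and Slc24a4, a sodium/calcium exchanger (-0.56 ± 0.14, adjusted p = 0.0123). The median difference over the list was -0.23 log2 units, against -0.08 over all genes. Gnal, the olfactory G protein subunit through which the receptors signal, was at -0.10 ± 0.11.

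The question of the design is whether the odor mixture moved a receptor between fractions. No Taar7 or Taar8 gene was called for a change of its fraction difference between odor and vehicle pools (limma; 16 arrays or without vehicle pool 3), where 0.00513% and 0.0103% of all genes were called. At an unadjusted p under 0.05 there were 2 of 8 over 16 arrays and 1 without vehicle pool 3, against 2.98% and 2.68% of all genes. The gene with an unadjusted p under 0.05 in both was Taar7a, whose fraction difference was larger under odor by 2.08 ± 0.88 log2 units over 16 arrays and by 0.81 ± 0.37 without vehicle pool 3 (95% interval 0.03 to 1.58; limma, adjusted p = 1). Values for the other 7 without vehicle pool 3 ran from -0.31 ± 0.47 for Taar7b to 0.77 ± 0.58 for Taar7d, whose interval reached 2.00. For all but Taar8b the interval held changes of 1 log2 unit or more in some direction.

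**Figure D4:**
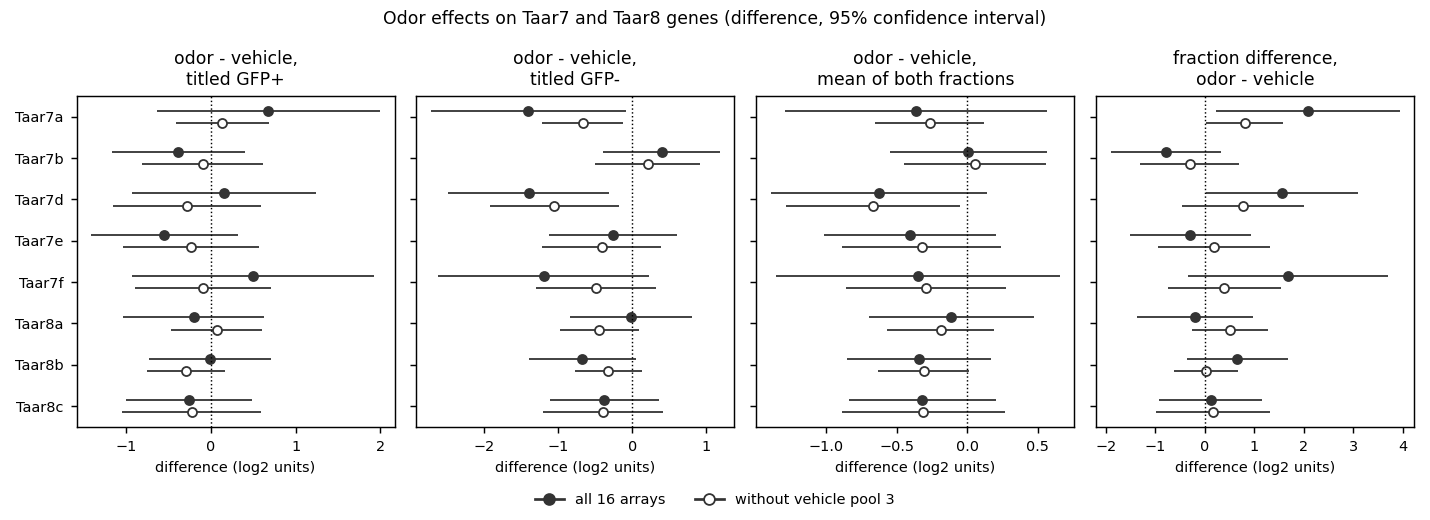
Odor minus vehicle for the 8 genes in each titled fraction, as the mean of both fractions, and as the difference between the fraction differences (log2 units, limma estimate with 95% confidence interval, separate axes). Filled points are fits on 16 arrays, open points fits without vehicle pool 3. The open points for Taar7d and Taar7a in the libraries titled GFP- lie lowest, at -1.05 and -0.67, and no gene passed the adjusted threshold in any panel.

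Within the fractions no Taar7 or Taar8 gene was called between odor and vehicle either. In the libraries titled GFP+ 0.0% of all genes were called over 16 arrays and 0.0359% without vehicle pool 3, and of the 8 genes none had an unadjusted p under 0.05 in either fit, against 4.66% and 7.78% of all genes. Without vehicle pool 3 the differences there ran from -0.29 ± 0.21 log2 units (Taar8b) to 0.14 ± 0.26 (Taar7a). In the libraries titled GFP- 0.0103% and 0.0256% of all genes were called, and 2 of the 8 had an unadjusted p under 0.05 in each fit, against 6.36% and 7.55% of all genes. These were Taar7a (-0.67 ± 0.26 log2 units without vehicle pool 3) and Taar7d (-1.05 ± 0.41), both with an adjusted p of 0.543 (limma). Taar8b was the gene whose libraries titled GFP- did not overlap between treatments: 4.60 to 5.31 under odor and 5.37 to 6.82 in filtered air, or 5.37 to 5.44 without pool 3. Over all genes 4.17% (814) did not overlap in this comparison, and the difference for Taar8b was -0.67 ± 0.34 log2 units over 16 arrays (limma, adjusted p = 0.795) and -0.32 ± 0.21 without vehicle pool 3 (adjusted p = 0.771).

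The mean of both fractions of a pool does not depend on which library is which. By that measure 7 of the 8 genes had values below 0 for odor minus vehicle and none was called, where 0.0308% of all genes were called over 16 arrays and 0.641% without vehicle pool 3. Of the 8 genes 0 and 1 had an unadjusted p under 0.05, against 8.51% and 11.9% of all genes, a share near the background. Taar7d was at -0.67 ± 0.29 log2 units without vehicle pool 3 (95% interval -1.29 to -0.05, limma, adjusted p = 0.375). With the pool as a block its SE was 0.31 and its interval -1.33 to -0.0091 (limma, adjusted p = 0.491). The other values without vehicle pool 3 lay between -0.32 ± 0.27 for Taar7e and 0.06 ± 0.24 for Taar7b, with Taar8b at -0.31 ± 0.15. Over the 8 genes the median was -0.35 log2 units on 16 arrays, against -0.02 over all genes.

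Across the 16 libraries each Taar7 gene was most like another Taar7 gene, and each of the 3 Taar8 genes was nearer to a Taar7 gene than to another Taar8 gene. Likeness was measured as the root mean square difference between profiles, each centred on its own mean, so that smaller values are more alike. Taar7b was nearest to Taar7e (0.47 log2 units), and Taar8a nearest to Taar7e (0.49). Taar7d was nearest to Taar7f (0.55), Taar7a to Taar7f (0.57) and Taar8b to Taar7d (0.58). The farthest pair was Taar7a and Taar8a, at 1.97. Likeness of the promoter windows went with this order in some pairs and not in others. Taar7d and Taar7e, at 85.8% identity, were 1.31 apart, while Taar7a and Taar7f, at 51.2%, were 0.57 apart. Taar7d and Taar7f were alike in both, at 78.7% and 0.55. The relation over all pairs was not tested. The distances rest on the same libraries, include the fraction difference and are not scaled to the spread of each gene. Taar7a and the 3 Taar8 genes were below the 95th percentile of the negative controls (9.56) in all 16 libraries. When vehicle pool 3 was left out, the pairs Taar7d with Taar7e and Taar7a with Taar7f were at 1.28 and 0.60. The closest pair was then Taar7e with Taar8a (0.45), ahead of Taar7b with Taar7e (0.48). Taar7e was thus most like a Taar8 gene without that pool, and the statement for each Taar7 gene holds over the 16 libraries only.

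**Figure D5:**
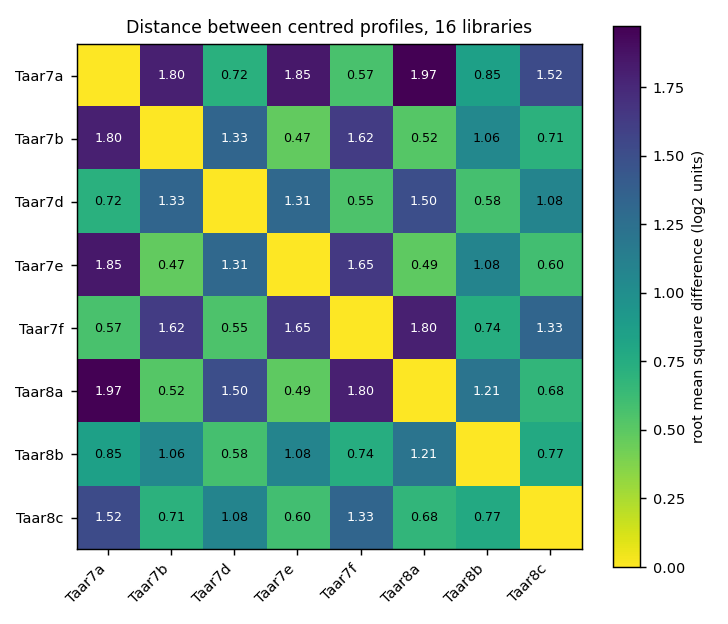
Root mean square difference (log2 units) between the centred profiles of each pair of the 8 genes over 16 libraries; each cell holds its value and darker cells are farther apart. Taar7b with Taar7e (0.47) is the closest pair over these 16 libraries, though not without vehicle pool 3, and Taar7a with Taar8a (1.97) the farthest.

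By the same measure, the nearest of all other genes with a symbol were odorant receptors for Taar7d (Olfr464, 0.44), Taar7e (Olfr616, 0.33), Taar7f (Olfr1499, 0.39), Taar8a (Olfr418, 0.28) and Taar8b (Olfr1162, 0.28). For Taar7a the nearest was Mmp12, a macrophage elastase (0.35), ahead of Olfr55 (0.39). For Taar7b it was Slco6c1 (0.29), ahead of Olfr488 (0.30), and for Taar8c Ism1 (0.28). Taar5 was among the 3 nearest to Taar8a (0.30). Of the 24 nearest genes, 3 for each receptor, 13 were again among the 3 nearest without vehicle pool 3 and 18 with quantile normalization. Olfr418, Olfr464, Olfr616 and Olfr1499 were among the 13. For Taar8b neither Olfr1162 nor the other genes of its 3 nearest stayed without vehicle pool 3. The share of odorant receptors among the genes searched was not counted, so these names are a description.

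The signal of several of these probe sets was low. On the deposited scale the 5222 negative control probe sets of the array centred on 5.45 (median), with 9.56 as their 95th percentile. Taar7a, Taar8a, Taar8b and Taar8c were below that percentile in all 16 libraries, Taar7b was above it in all 16, and Taar7d, Taar7e and Taar7f were above it in 7, 6 and 3. A level below that percentile is no evidence of expression. Probe sequences were not used here, so how far a probe set separates near-identical Taar7 or Taar8 copies was not tested.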

How the data were processed

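The deposited table of 28846 probe sets holds log2 values that the authors made in Affymetrix Expression Console, as the submitters' processing notes name it; which normalization and build they used is not given in the sources used here, and values up to 19.40 exceed the 16 bits of a scanner. Of 19572 probe sets with 1 gene symbol in the platform annotation, 19505 genes were kept (highest mean probe set for 55 genes with several). Differences were fitted with limma 3.58.1 in R 4.3.3, 1 mean per group, all groups sharing the spread, two-sided, Benjamini-Hochberg over all genes at 0.05. The odor fraction comparison was tested on 16 simulated arrays, with the spread of each gene taken without vehicle pool 3. It recovered 74% of genes shifted by 1 log2 unit and 97% of those shifted by 2, of 200 changed among 19505. In the measured 16 arrays vehicle pool 3 widened the spread of genes such as Taar7f (SE 0.67, against 0.35 without it). These shares therefore do not describe the fit on the 16 measured arrays. Alternatives left out libraries, centred or quantile-normalized arrays, filtered dim genes, fitted the compared groups alone, used eBayes with trend, or used the pool as a block. The 2 libraries of a pool come from the same mice, which pairs them; their deviations from group means correlated at 0.13 to 0.25 in odor pools and, without vehicle pool 3, at -0.02 to 0.29 in vehicle pools. Named were all 8 genes, the 7 other receptors of the cluster, called genes of the transduction list and some of the 3 nearest profiles per gene (predicted loci left out). Promoter windows are RefSeq's and were aligned with Biopython 1.88. The members, though defined by symbol, and the lists were proposed with earlier results of these data known. Within a group each library is from a different pool, so p-values measure the spread between pools of mice. Over 16 arrays that spread includes vehicle pool 3. Fits without the pool block treat the 2 libraries of a pool as independent. For the mean of both fractions this overstates the number of independent values. A planned amino acid comparison was not run.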

Additional observations from a re-analysis of the deposited data

Results flagged for a closer look

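Of the 32 groups of 4 libraries (8 genes in 4 groups), 6 held a library far from the other 3 by Dixon's test; chance marks about 1 in 20 groups. In 3 of the 6 the library was from vehicle pool 3: Taar7a at 9.38 in the library titled GFP- (others 6.23 to 6.58), Taar8b at 6.82 in the library titled GFP- (others 5.37 to 5.44), and Taar8b at 5.23 in the library titled GFP+ (others 6.28 to 6.47). The remaining 3 were odor libraries. Taar7a was lowest in odor pool 4 titled GFP+, at 8.11 (others 8.66 to 8.71), Taar7b highest in odor pool 4 titled GFP-, at 11.63 (others 11.15 to 11.19), and Taar8b lowest in odor pool 3 titled GFP-, at 4.60 (others 5.21 to 5.31).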

How the results depend on the processing

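The number of Taar7 and Taar8 genes called between the odor fractions (1 on 16 arrays, where 6.97% of all genes were called) was 5 without vehicle pool 3 (13.2% of all genes), 6 with centred arrays (29.4%), 6 with the compared groups fitted alone (11.9%), 2 with dim genes filtered out (10.4% of the genes kept) and 0 with the pool as a replicate block (0.0103%). Chosen after seeing the data, fits without vehicle pool 3 gave 7 with the replicate block (13.6%) and 7 with centring (51.7%). Leaving out 1 library gave 0 to 5 from 16 arrays (0.0103% to 11.2%) and 5 to 7 from the 14 (10.5% to 13.4%). Between the vehicle fractions (0 called) it was 4 without vehicle pool 3 (11.2% of all genes), 5 with the block in addition (11.9%) and 6 with centring in addition (43.1%). Leaving out 1 library gave 0 in every fit from 16 arrays (0.0% to 5.96%) and 3 to 5 from the 14 (8.43% to 11.6%). The other 4 comparisons called none in any setting.

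No difference called on the 16 arrays (Taar7a between the odor fractions) reversed, nor did any other between the odor fractions. In 15 of 48 gene results, none of them called on the 16 arrays, some setting turned the sign. Without vehicle pool 3, alone or with the replicate block, these became: for the change of the fraction difference, 0.18 (Taar7e) and 0.51 (Taar8a); for odor minus vehicle in the libraries titled GFP+, -0.29 (Taar7d), -0.093 (Taar7f) and 0.069 (Taar8a). Without vehicle pool 3 and with centring they were 0.19, 0.52, -0.25, -0.057 and 0.11. Centring of 16 arrays gave -0.026 for Taar7d between the vehicle fractions, -0.041 for the change of the fraction difference of Taar8c and 0.079 for odor minus vehicle of Taar8a in the libraries titled GFP-; quantile normalization gave -0.0085 and 0.11 for the last 2. Leaving out 1 library gave ranges across 0. Between the vehicle fractions these were -0.43 to 0.17 (Taar7b, called as lower without vehicle pool 3 and with centring) and -0.25 to 0.60 (Taar7d). For the change of the fraction difference they were -0.57 to 0.024 (Taar7e), -0.47 to 0.24 (Taar8a) and -0.17 to 0.35 (Taar8c). In the libraries titled GFP+ they were -0.29 to 0.56 (Taar7d), -0.093 to 0.89 (Taar7f), -0.38 to 0.069 (Taar8a) and -0.29 to 0.12 (Taar8b), and in those titled GFP-, -0.47 to 0.023 (Taar7e) and -0.44 to 0.27 (Taar8a). For the mean of both fractions they were -0.64 to 0.0041 (Taar7a), -0.15 to 0.15 (Taar7b), -0.64 to 0.0027 (Taar7f) and -0.33 to 0.030 (Taar8a). The cause was not tested, beyond vehicle pool 3 having the opposite sign in 7 of 8 genes. The number of pools, 4 per treatment, limits all of these, and for Taar7a and the 3 Taar8 genes so does a signal within the range of the negative controls.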
